A study of Homo sapiens with 2 samples.

Results

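The miR-193 and miR-365 family comprises the microRNAs cut from 4 human hairpins, MIR193A, MIR193B, MIR365A and MIR365B. The members were selected by name, taking every probe for miR-193a, miR-193b, miR-365a or miR-365b, either arm: hsa-miR-193a-5p, hsa-miR-193b-5p, hsa-miR-365a-5p, hsa-miR-365b-5p, hsa-miR-193a-3p, hsa-miR-193b-3p, hsa-miR-365a-3p and hsa-miR-365b-3p. These 8 of the 2656 miRNA names on the array sit on 7 of its 2632 miRNA probes, because miR-365a-3p and miR-365b-3p share 1 probe. The family itself was proposed with the spot intensities and BNCT differences of these arrays known, so its values are given as a description and no test is attached to them.

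The study compared exosomal miRNA, that is miRNA in the small vesicles that cells shed into their medium, after boron neutron capture therapy (BNCT) and without it. The BNCT sample came from U87MG delta EGFR cells, a glioblastoma line derived from U87MG whose name refers to a shortened EGF receptor. They received a p-boronophenylalanine-fructose complex at 25 ppm, 2 hours in all, and then thermal neutrons, and the medium was taken on day 3 afterwards. Boron that captures a neutron splits into particles that travel about as far as a cell is wide. The control sample came from the same line and is labelled as non-treated. Both grew in DMEM with serum depleted of exosomes. The labels attach 1 treatment text to both samples, so whether control cells met the boron compound or sham handling is not stated, and compound, neutrons, handling and day of collection cannot be told apart. The titles name exosomes while the extraction protocol speaks of RNA from cells. Each group had 1 Toray 3D-Gene array with 1 colour, so nothing was replicated, no test or p-value can be given, and slide and group cannot be told apart.

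A microRNA hairpin yields a 5p and a 3p arm, and usually 1 of them is loaded into Argonaute and represses messages that match its seed, bases 2 to 8. For miR-193b and miR-365 the 3p arm is the one generally taken as the working strand, and the 5p arms of miR-193b and miR-365a carried star names in older annotation, which marked the lesser arm. miR-193a-3p and miR-193b-3p are known as growth-restraining miRNAs that repress cyclin D1, MCL1, KIT, ERBB4 and the urokinase gene PLAU. miR-365-3p is known to repress cyclin D1 and the lung transcription factor NKX2-1. In mouse, miR-193b and miR-365 have been reported to promote differentiation of brown fat.

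The 4 hairpins form a pair of clusters. In GRCh38.p14, as RefSeq gives it, MIR193B lies at chr16:14303967-14304049 and MIR365A at chr16:14309285-14309371, both on the plus strand with 5235 bases between them and inside the annotated span of the long non-coding RNA gene MIR193BHG. MIR193A lies at chr17:31559996-31560083 and MIR365B at chr17:31575411-31575521, again on the plus strand, with 15327 bases between them, and MIR365B lies inside the span of MIR365BHG. The hairpins are shown because the results below are given by arm. Capitals mark the mature arms, 5p first.
MIR193B: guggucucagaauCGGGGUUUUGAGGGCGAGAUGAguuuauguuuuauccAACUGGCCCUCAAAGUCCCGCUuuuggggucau
MIR365A: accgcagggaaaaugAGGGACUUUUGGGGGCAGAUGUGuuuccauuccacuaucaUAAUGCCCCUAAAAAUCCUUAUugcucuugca
MIR193A: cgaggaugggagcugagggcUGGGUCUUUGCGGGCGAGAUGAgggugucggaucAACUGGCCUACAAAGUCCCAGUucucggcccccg
MIR365B: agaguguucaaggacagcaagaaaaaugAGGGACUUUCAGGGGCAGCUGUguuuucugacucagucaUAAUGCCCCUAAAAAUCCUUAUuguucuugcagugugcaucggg

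All 8 mature names were matched in the RefSeq table. The 5p arms are shown first and the 3p arms after them, with the seed in capitals.
miR-193a-5p: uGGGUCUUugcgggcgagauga
miR-193b-5p: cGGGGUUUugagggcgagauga
miR-365a-5p: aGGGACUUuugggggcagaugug
miR-365b-5p: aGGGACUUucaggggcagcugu
miR-193a-3p: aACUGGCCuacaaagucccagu
miR-193b-3p: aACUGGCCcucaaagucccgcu
miR-365a-3p: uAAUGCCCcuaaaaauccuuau
miR-365b-3p: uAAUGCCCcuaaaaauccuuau

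The paralogs fall into 5 seed groups. miR-193a-3p and miR-193b-3p share the seed ACUGGCC and match at 18 of 22 positions counted from the 5′ end. miR-365a-5p and miR-365b-5p share the seed GGGACUU and match at 19 of 22 positions. The miR-365 3p arms are the same at all 22, which is why 1 probe serves both. miR-193a-5p and miR-193b-5p match at 18 of 22 positions but not in the seed, GGGUCUU in miR-193a-5p and GGGGUUU in miR-193b-5p. They share the run GGGCGAGAUGA, 11 bases at their 3′ ends. No other human miRNA on the array that had a RefSeq sequence carried one of these seeds. Probe sequences were not analysed here, so how far a probe also binds the paralog was not tested.

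A spot was called detected where its median brightness exceeded the mean plus 2 SD of the array's blank spots, a limit of 267.5 scanner units on the BNCT array and 272.0 on the control array. Of the 112 spots on each array that carry no probe, 110 in BNCT and 112 in control also exceeded this limit. Passing it therefore does not by itself show that a miRNA was present. The BNCT array showed 5 of the 7 family probes, and 36.2% of all miRNA probes. On the control array 2 of the 7 were detected, against 28.6% of all miRNA probes, so the family's share there was that of the array as a whole. Both probes detected on the control array were also detected on the BNCT array (23.9% of all miRNA probes were detected on both). The other 3 probes detected in BNCT were below the limit in control, as were 12.3% of all miRNA probes, and none was detected in control alone (4.64% of all probes). By arm, all 4 of the 5p probes were detected in BNCT and 2 in control, against 42.4% and 34.7% of all 5p probes. Of the 3 probes for 3p arms, 1 was detected in BNCT and 0 in control, against 28.3% and 21.4% of all 3p probes. The brightness of the arms overlapped: in BNCT the shared miR-365 3p probe read 269.2 units and miR-193a-5p 268.9. In control miR-193a-3p and miR-193a-5p each read 269.6 units.

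**Figure D1:**
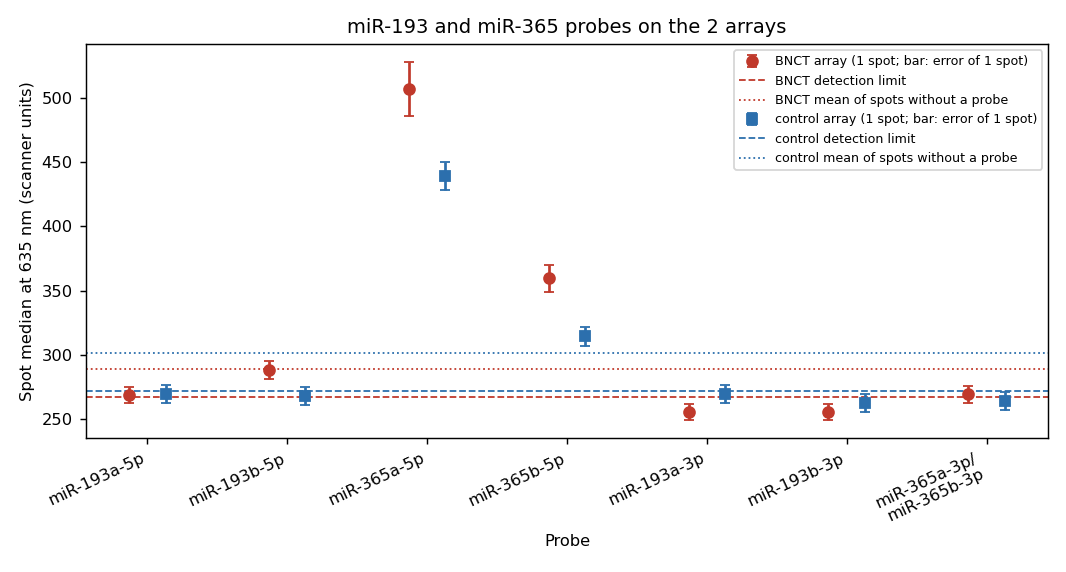
Spot median (scanner units) of the 7 miR-193 and miR-365 probes on the BNCT array (red circles) and the control array (blue squares), 1 spot each, with bars for the error of 1 spot, dashed lines at the detection limits and dotted lines at the mean of spots that carry no probe. Only miR-365a-5p and miR-365b-5p stand clear of all the lines, and the 3p arms lie at or near the limits. The control spot of miR-365b-5p, 314.4 units, was under the limit from spots without a probe, 317.6, which is not drawn.

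miR-365a-5p, the star arm of the hairpin on chromosome 16, was far above the blank spots on both arrays. Its spot read 506.7 units on the BNCT array and 439.0 on the control array. That is 251.8 units above the mean of the blank spots in BNCT, or 40.2 SD of those spots, and 180.9 units above it in control, or 26.1 SD. The brightest blank spot in its own block of the array read 267.7 units in BNCT and 261.7 in control. The scanner's background value at the miR-365a-5p spot was higher than these, 366.0 units in BNCT and 314.3 in control. The normalized log2 level was 7.94 in BNCT and 8.13 in control, a difference (BNCT minus control) of -0.20 with an error of 0.12 for a pair of single spots. Of the 630 probes detected on both arrays, 88 had a lower difference than this one. The difference is smaller than 2-fold and less than 1 SD (0.22) of the differences of those 630 probes.

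miR-365b-5p, the corresponding arm of the chromosome 17 hairpin, was the other member detected on both arrays. It read 359.4 units in BNCT and 314.4 in control, 104.5 and 56.2 units above the blank means, or 16.7 and 8.11 SD of the blank spots. The scanner's background value at the miR-365b-5p spot was 382.2 units in BNCT, above the spot itself, and 280.9 in control. The control spot was under the limit from spots without a probe, 317.6 units. The normalized level of miR-365b-5p was 6.98 in BNCT and 7.02 in control, a log2 difference of -0.03 with a spot error of 0.14. The differences of miR-365b-5p and miR-365a-5p lay 0.17 apart on the log2 scale, with an error of 0.19, so the paralogous arms did not separate beyond the error of the spots.

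Neither of the pair reached 2-fold, and in the reported processing 0 of the 630 probes did (0% higher and 0% lower). Scaled to the spike control spots 95 of the 630 (15.1%) were 2-fold higher and 0 lower, and in the authors' values 72 of the probes listed on both arrays (11.3%) were higher and 15 (2.36%) lower, with neither of the pair among them. Before normalization the spots of both were brighter in BNCT, by 67.7 units for miR-365a-5p (spot error 23.8) and by 45.0 units for miR-365b-5p (spot error 12.8). Most probes moved that way: 528 of the 630 (83.8%) read higher on the BNCT array, and their median log2 ratio after subtracting the blank mean was 0.72. On that scale miR-365a-5p was 0.48 and miR-365b-5p 0.89. A control probe that the files name S-Probe1014, with a brightness like that of miR-365a-5p, read 503.5 ± 17.6 units in BNCT and 419.0 ± 9.48 in control (SD, n = 8 spots each), a log2 ratio of 0.63. The target of S-Probe1014 was not given in the sources used here. The sign of both members' differences changed with the scaling. Without normalization miR-365a-5p was 0.39 and miR-365b-5p 0.54, scaled to the spike control spots 0.67 and 0.83, and in the authors' values 0.17 and 0.59. With the scanner's background values miR-365a-5p was 0.13 and miR-365b-5p -0.27, and miR-365b-5p was also above 0 with median scaling (0.04) and cyclic loess (0.02). In the authors' linear values miR-365a-5p was 163.2 in BNCT and 145.1 in control, and miR-365b-5p 67.7 in BNCT and 45.1 in control.

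**Figure D2:**
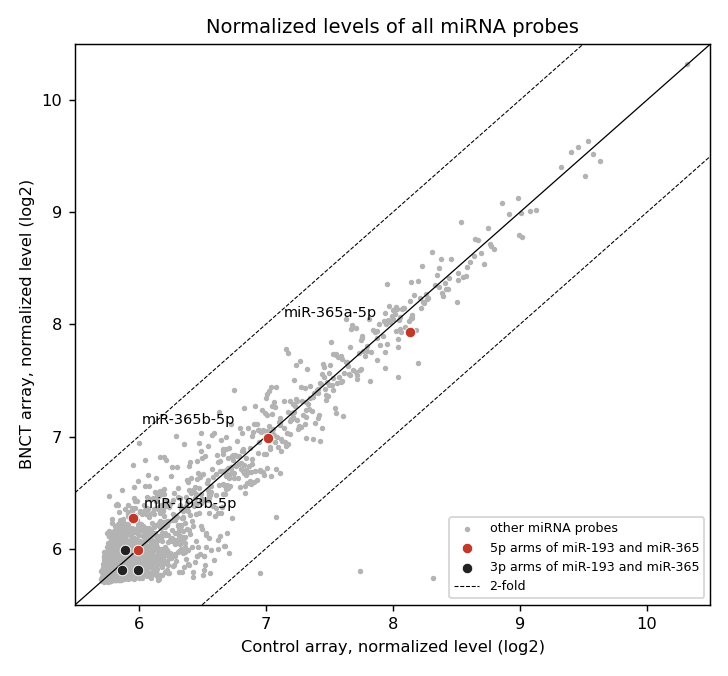
Normalized log2 level of each miRNA probe on the BNCT array (vertical) and the control array (horizontal), with the 5p arms of the family in red, its 3p arms in black and dashed lines at 2-fold. miR-365a-5p and miR-365b-5p lie near the diagonal among the brighter probes, and miR-193b-5p lies above it in the dim cloud at levels of 6.27 in BNCT and 5.96 in control.

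miR-193b-5p, the star arm of miR-193b, gave the clearest signal among the members detected on 1 array. It read 288.0 units in BNCT, 5.27 SD above the blank mean, and 267.9 in control, 1.40 SD above it and under the limit. The spots differed by 20.1 units with a spot error of 9.73. In its own block the 4 blank spots ranged between 240.6 and 258.5 units in BNCT and between 239.7 and 267.0 in control. The normalized level was 6.27 in BNCT and 5.96 in control, a log2 difference of 0.31 with a spot error of 0.20. The fold bound, which leaves out the spot error, was 1.17, higher in BNCT. The bound sets the BNCT level against the lowest detected level on the control array, 6.05. Of the 323 probes detected in BNCT alone, 54.2% had a bound above 1. The difference of miR-193b-5p was -0.07 with median scaling, -0.13 with 75th percentile scaling and -0.10 with the scanner's background values, and under these 3 settings there was no bound above 1. With plain subtraction of the blank spots the difference was 1.32. Spots that carry no probe at all averaged 289.0 ± 12.3 units in BNCT and 301.3 ± 10.4 in control (SD, n = 112 spots each), so miR-193b-5p was no brighter than they were.

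miR-193a-5p and the shared miR-365 3p probe were at the edge of detection. miR-193a-5p, reported as a growth-restraining arm in several tumours, read 268.9 units in BNCT and 269.6 in control. It counted as detected in BNCT because the limit there was lower, not because the spot was brighter. The shared probe of miR-365a-3p and miR-365b-3p, the working strand of both miR-365 hairpins, read 269.2 units in BNCT and 263.9 in control, 2.28 and 0.84 SD above the blank means. The spots differed by 5.2 units with a spot error of 9.42. Neither probe had a fold bound above 1 in the reported processing. With 1 limit for both arrays, the higher one of 272.0, both dropped out and 3 family probes were detected in BNCT (29.6% of all probes), while the control count was 2 of 7 (28.6%) and 22.2% of all probes were detected on both arrays. With limits at 5 SD, miR-193b-5p, miR-365a-5p and miR-365b-5p were detected in BNCT (19.9% of all probes) and the miR-365 5p arms in control (13.5%) and on both arrays (13.2%). With limits from spots without a probe, the miR-365 5p arms were detected in BNCT (15.3% of all probes), and miR-365a-5p was the member detected in control (8.93%) and on both arrays (8.81%).

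The seed-sharing 3p arms of miR-193 were not detectable on either array. miR-193a-3p read 255.4 units in BNCT, 0.08 SD above the blank mean, and 269.6 in control, 1.66 SD above it. miR-193b-3p read 255.5 units in BNCT and 262.5 in control, 0.10 and 0.63 SD above the blank means. Both spots were dimmer in BNCT, with differences (BNCT minus control) of -14.2 units for miR-193a-3p (spot error 9.36) and -7.0 units for miR-193b-3p (spot error 9.35), at levels where blank spots of the same blocks reached 266.2 and 272.0 units in BNCT and 279.9 and 271.1 in control. At this brightness a difference in either miRNA could not be seen.

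**Figure D3:**
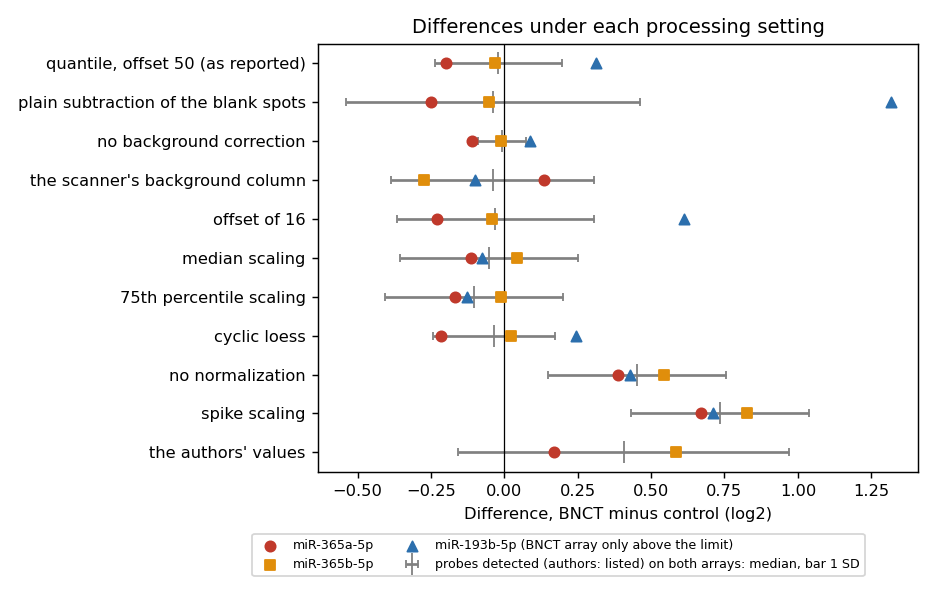
Log2 difference (BNCT minus control) of miR-365a-5p, miR-365b-5p and miR-193b-5p under the reported processing and 10 alternatives, with the median and SD of the probes detected on both arrays (in the authors' values, listed on both) as grey bars. miR-365a-5p and miR-365b-5p lie within the grey bars, except miR-365a-5p at -0.11 without background correction, and under 2-fold in each setting shown, while miR-193b-5p lies between -0.13 with 75th percentile scaling and 1.32 with plain subtraction.

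The 5p arms share a base composition that the choice by name did not use, and the shared miR-365 3p probe, detected at the edge in BNCT, does not have it. G made up 45.5% of the bases of miR-193a-5p, 50% of miR-193b-5p, 47.8% of miR-365a-5p and 40.9% of miR-365b-5p. In the 3p arms it made up 18.2% of miR-193a-3p and miR-193b-3p and 4.55% of the miR-365 arm. The longest run of G was 5 bases in miR-365a-5p, 4 in miR-365b-5p and miR-193b-5p and 3 in miR-193a-5p. Across the 2349 probes with a RefSeq sequence, detection was most frequent at a G share of 40% or more. It was lowest in the 663 probes with 20 to under 30% G, 15.2% in BNCT and 11.8% in control. In the 498 probes with 30 to under 40% G it was 34.5% in BNCT and 23.3% in control. Of 689 probes under 20% G, which include the 3 family 3p probes, 19.3% were detected in BNCT (95% Wilson interval 16.5 to 22.4) and 15.8% in control (13.3 to 18.7). Of 259 probes with 40 to under 50% G, which include miR-193a-5p, miR-365a-5p and miR-365b-5p, 81.9% were detected in BNCT (76.7 to 86.1) and 60.6% in control (54.6 to 66.4). Of 240 probes with 50% G or more, which include miR-193b-5p, 98.3% were detected in BNCT (95.8 to 99.3) and 90.4% in control (86.0 to 93.5). miR-193b-5p was thus among the few probes of that class under the limit in control. The part of base composition in the family's counts by arm was not tested.

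**Figure D4:**
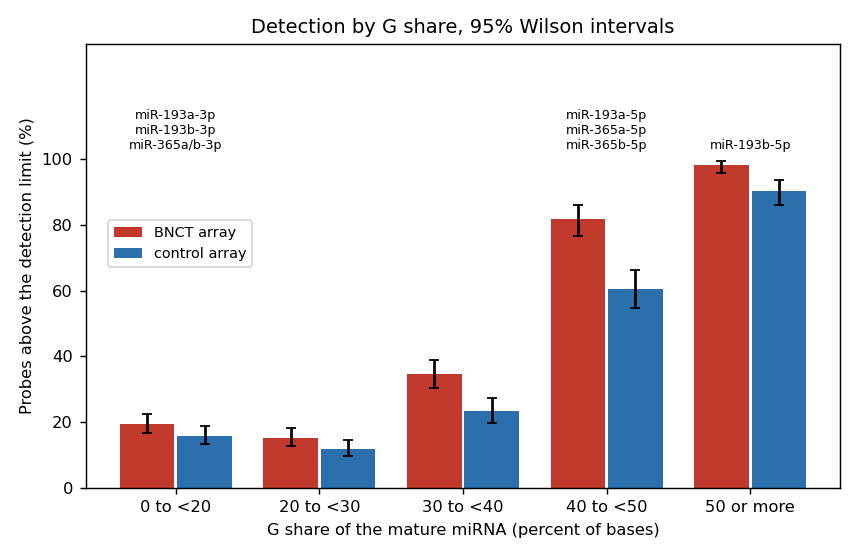
Share of probes above the detection limit (percent, with 95% Wilson intervals over probes) by the G share of the mature miRNA, on the BNCT array (red) and the control array (blue), with the family probes named above the class they belong to. The 3p arms of the family fall in the class with 19.3% detected in BNCT and 15.8% in control, and the 5p arms in the 2 classes of highest G share.

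Over the whole array 5p arms were detected more often than 3p arms. Of 893 probes named as 5p, 42.4% were detected in BNCT and 34.7% in control, and of 911 named as 3p, 28.3% in BNCT and 21.4% in control. The median G share was 30.4% for 5p and 21.7% for 3p names with a sequence. Among 863 miRNA names with both arms on the array, the 5p arm alone was detected for 26.9% in BNCT and 23.9% in control, and the 3p arm alone for 11.4% in BNCT and 10.5% in control. In BNCT miR-193a and miR-193b were of the first kind, miR-193a by a spot of 268.9 units against a limit of 267.5. miR-365a and miR-365b had both arms detected in BNCT, as had 16.6% of the names, through their shared 3p probe at 269.2 units. In control miR-365a and miR-365b were of the first kind. Neither arm of miR-193a or miR-193b was detected in control, as for 54.9% of the names.

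The miRNA probes closest to miR-365a-5p in normalized level over the 2 arrays were miR-1260b, at a Euclidean distance of 0.05 on the log2 scale, miR-4508 at 0.06 and miR-2861 at 0.07. miR-1260b read 507.4 units in BNCT and 449.0 in control, miR-4508 513.7 and 428.6, and miR-2861 506.7 and 424.1. With 1 array a group this likeness rests on 2 values per probe.

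Other miRNAs known to act on the same targets or in the same tissues were mostly undetected, and none detected on both arrays differed 2-fold. Of 14 miRNAs known to repress cyclin D1, 0 were detected in BNCT and 1 in control, miR-34a-5p (237.6 units in BNCT, 276.8 in control), a p53 target. Of 12 miRNAs known to repress MCL1, 3 were detected in BNCT and 1 in control. Those in BNCT were miR-320a-3p (289.5 units in BNCT, 265.1 in control), miR-29a-3p (276.5 in BNCT, 255.4 in control) and miR-181b-5p (270.2 in BNCT, 250.8 in control), and miR-519d-3p was the one in control (263.1 in BNCT, 275.4 in control). Of 23 miRNAs of brown fat and muscle, 4 were detected in BNCT and 2 in control. The muscle miRNA miR-133a-3p passed the limit on both arrays (272.5 units in BNCT, 274.7 in control, log2 difference -0.07, spot error 0.20). miR-378a-5p was detected in control only (252.3 in BNCT, 311.1 in control), with a fold bound of 1.99, lower in BNCT. The normalized log2 difference of this probe was -1.17 (spot error 0.19), more than 2-fold. Its control spot was under the limit from spots without a probe, 317.6 units. miR-328-3p read 273.3 units in BNCT and 251.7 in control, miR-155-5p 275.1 in BNCT and 258.0 in control, and miR-30c-5p 270.6 in BNCT and 262.2 in control. Of 9 miRNAs known to repress KIT or ERBB receptors, 0 were detected in BNCT and 1 in control, miR-205-5p (264.9 in BNCT, 274.5 in control). Every one of these shares lies below the 36.2% and 28.6% of all probes.

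The labelled cell type was also set against its miRNAs. Of 11 miRNAs abundant in glioblastoma lines 2 (18.2%) were detected in BNCT and 2 (18.2%) in control, against 36.2% and 28.6% of all probes. miR-24-3p was detected on both (915.6 units in BNCT, 620.0 in control), miR-29a-3p in BNCT, and miR-23a-3p in control (259.0 in BNCT, 280.5 in control). The rest of that list, miR-21-5p, miR-10b-5p and miR-221-3p included, was under the limit on both arrays. Of 10 blood and serum miRNAs, 3 (30%) were detected in BNCT and 0 (0%) in control, again below the 36.2% and 28.6% of all probes. Those in BNCT were miR-223-3p (273.8 units in BNCT, 268.2 in control), miR-486-5p (270.5 and 259.8) and miR-144-3p (268.9 and 254.4). The miR-223-3p spot was the highest of the 10 on both arrays. The part of blood and serum miRNAs in the family's values was not tested.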

How the data were processed

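Both groups had 1 array each, and samples were grouped by their treatment label. The scanner files, per the file headers, give the median intensity of each spot at 635 nm, a background median and a flag per gain, with no scaling between arrays. The authors' processed values are linear intensities. Each equals the spot median minus a constant (254.9 on the BNCT array, 258.1 on the control array), divided by a factor (1.54 and 1.25) that puts the median of the listed values at 25. The software was not given in the sources used here. Line fits between gains 1 and 2 had an r2 of 0.998 (BNCT) and 0.910 (control), per the file headers.

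Spots were background-corrected in R 4.3.3 with limma 3.58.1 (nec, a normexp model fitted on the 312 blank spots, offset 50), put on the log2 scale and, for the 2632 miRNA probes, quantile-normalized. On the control array 2 spots with a failure flag, neither of the family, were left out. The detection limit used blank spots without the top and bottom 5%. The spot error combines their SD with the spike control CV (8.03% in BNCT, 4.70% in control), and covers neither cultures nor slides, so the number of arrays limits precision. Fold bounds compare the bright level with the dim array's lowest level among detected probes, or with the dim probe itself where that is higher. The bounds do not include the spot error. The procedure was tested on simulated arrays with equal noise on both and no array-wide difference in signal. That test does not cover the higher BNCT brightness of most probes. Tables were made in Python 3.11.15, and Wilson intervals count probes only.

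The rule for named miRNAs took every family probe, the 3 probes nearest to the member of highest mean level, probes that share a seed, and detected members of each list, up to 4 by size of difference. miR-133a-3p, the fifth of its list, was named beyond the rule after its values were seen, as the member of that list detected on both arrays. Members, lists and rules were chosen with earlier results of these data known. Alternatives covered background, offset, scaling, the detection limit and the authors' values, and limits from the blank spots of the same block were added after the files were seen. Sequences are RefSeq's, on GRCh38.p14.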

Additional observations from a re-analysis of the deposited data

How the results depend on the processing

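No paired analysis was possible because each group has 1 array, and no replicate could be left out. The count of family probes detected on the BNCT array, 5, became 3 with limits at 5 SD, with the common limit and with the blank spots of the same block (32.4% of all probes in BNCT, 22.3% in control and 20.2% on both with that last limit), and 2 with limits from spots without a probe. The control count of 2, and that on both arrays, became 1 with limits from spots without a probe, which left miR-365a-5p alone, and was 2 with the other limits. Of the 2 members detected on both arrays, 0 were 2-fold higher or lower under the 10 alternatives for background, offset, scaling and source of values. Over all probes the share 2-fold higher ran up to 15.1% (spike scaling) and the share lower up to 3.81% (plain subtraction, with 2.54% higher). miR-193b-5p, detected in BNCT alone, is outside that count and was 1.32 with plain subtraction. Without the detection filter, in the reported processing, 0 of the 7 members were 2-fold higher or lower. Of the 2630 probes with a value on both arrays, 0 (0%) were 2-fold higher and 3 (0.114%) lower. The log2 difference of miR-365a-5p turned to 0.13 with the scanner's background column, 0.39 without normalization, 0.67 with spike scaling and 0.17 in the authors' values. That of miR-365b-5p turned to 0.042 with median scaling, 0.022 with cyclic loess, 0.54 without normalization, 0.83 with spike scaling and 0.59 in the authors' values, and was -0.27 with the scanner's background column, which at that spot read 382.2 units in BNCT, above the spot itself, and 280.9 in control. The median of all probes detected on both arrays was 0.45 without normalization and 0.73 with spike scaling, so relative to it miR-365a-5p was -0.06 and miR-365b-5p 0.09 in both. With median scaling the median of all probes was -0.05, and relative to it miR-365b-5p was again 0.09. In the authors' values the median of the probes listed on both arrays was 0.41. Relative to that median miR-365a-5p was -0.24 and miR-365b-5p 0.18. The cause of the other turns was not tested. Signal over background limits the 3p arms, miR-193a-5p and miR-193b-5p.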
